A study of Mus musculus with 8 samples.

Results

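Extracellular nucleotides act on macrophages through receptors and are cleared by enzymes on the cell surface, and 10 genes of this system are described here: the ATP-gated channel genes P2rx7 and P2rx4, the nucleotide receptor genes P2ry2, P2ry6, P2ry12 and P2ry14, the adenosine receptor genes Adora2a and Adora2b, and the ectoenzyme genes Entpd1 and Cd38. They were taken by symbol from the 55226 genes of the deposited table, and all 10 were found once. All 10 also passed the filter on low values (a mean of at least 3 on the scale used), which left 11543 genes for testing.

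The cells were bone marrow-derived macrophages (BMDMs) of C57BL/6 mice, differentiated from bone marrow in culture. Over 7 days they received M-CSF, a macrophage growth factor, at 10 ng/ml in medium with 10% serum. The 4 groups were PtipcKO macrophages after LPS, a bacterial cell wall component given at 100 ng/ml for 6 h (cKO LPS), PtipcKO macrophages at 0 h (cKO 0 h), PtipWT macrophages after the same LPS treatment (WT LPS) and PtipWT macrophages at 0 h (WT 0 h). Each group held 2 samples, and the p-values cover only how these samples vary, since no label says whether a replicate number marks a mouse. The cKO genotype is a conditional knockout of PTIP, a regulator of histone methylation encoded by Paxip1; the sources used here do not give the Cre line, the deleted exons or the age of the mice.

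Damaged or activated cells release ATP, which opens P2X channels and stimulates P2Y receptors coupled to G proteins. CD39, the protein of Entpd1, cuts ATP and ADP to AMP, and CD73, the protein of Nt5e, cuts AMP to adenosine. Through the receptors that Adora2a and Adora2b encode, adenosine raises cyclic AMP and restrains inflammatory macrophages. CD38 consumes NAD and forms cyclic ADP-ribose, a calcium-mobilising messenger. In macrophages the P2X7 channel is best known for triggering the NLRP3 inflammasome and the release of interleukin 1 beta.

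Values are given as rlog, the authors' regularised log2 expression value, in which poorly covered genes are shrunk toward their average. A difference of 1 is a doubling of the shrunken value, and changes of low genes are understated. Paxip1 stood at 2.54 and 2.63 in cKO LPS, 2.54 and 2.48 in cKO 0 h, 3.82 and 4.08 in WT LPS and 4.50 in both WT 0 h samples, lower in every library labelled cKO. All 10 macrophage marker genes were detected, from 5.19 to 19.31, while the erythroid markers stayed at or below 0.09. Of the neutrophil markers, Mmp8 (12.05 to 13.76), S100a8 (6.497 to 8.351) and Camp (3.71 to 6.52) were detected and Ly6g stayed at or below -1.98. Across genes, which are not independent replicates, r between both samples of any one group was 0.987 to 0.992.

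The levels of the 10 genes differed widely at rest, and LPS reordered them. Levels of different genes can be compared only per length, so log2 of the merged exon length in kb was subtracted from rlog. Before that subtraction, the mean rlog of the 10 genes ran from percentile 13.6 for P2ry12 to 98.2 for P2rx4 of all tested genes. These percentiles are not corrected for length. Per length, P2rx4 was first in both resting groups, at 9.64 ± 0.20 in cKO 0 h and 9.72 ± 0.15 in WT 0 h (SD, n = 2 each), followed by P2ry6 at 7.75 ± 0.10 in cKO 0 h and 8.27 ± 0.29 in WT 0 h. After LPS Adora2a was first, at 10.31 ± 0.15 in cKO LPS and 10.40 ± 0.07 in WT LPS. P2rx4 and Cd38 came next in cKO LPS and overlapped, while in WT LPS Adora2a and Cd38 overlapped and both lay above P2rx4. P2ry2 and P2ry12 were ninth and last in all 4 groups, and P2ry12 averaged 2.42 ± 0.0008 in cKO LPS, 2.79 ± 0.21 in cKO 0 h, 3.02 ± 0.87 in WT LPS and 3.43 ± 0.29 in WT 0 h. Other neighbours in the order whose samples overlapped were Adora2b and Entpd1 in WT LPS, and in WT 0 h Cd38 with Adora2a, Adora2a with Entpd1, and Adora2b with P2ry2.

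**Figure D1:**
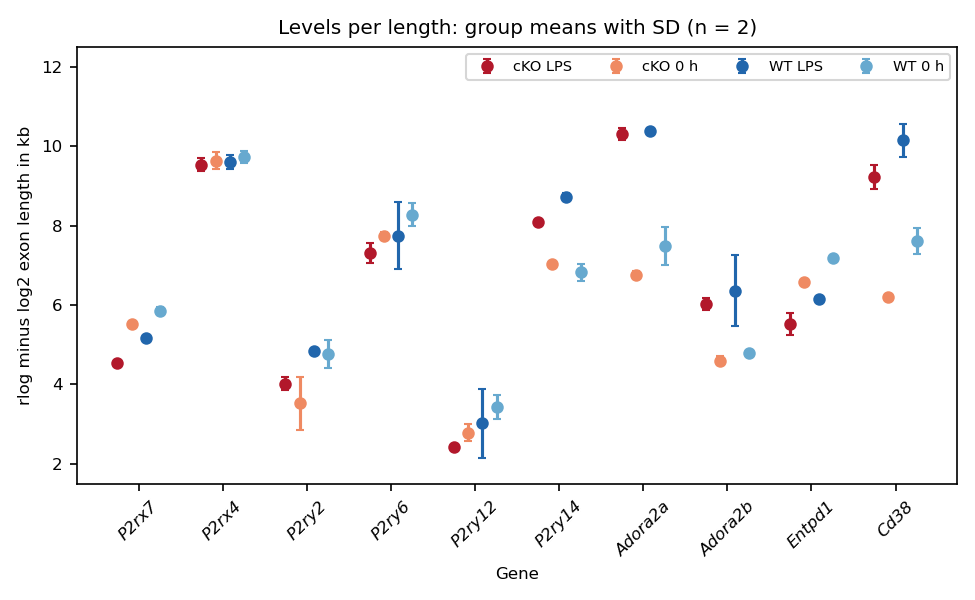
Levels per length (rlog minus log2 exon length in kb) of the 10 genes, with the mean of 2 samples per group as a point and the SD as a bar. Adora2a and Cd38 lie higher in the LPS groups than at 0 h, P2rx4 averages 9.54 to 9.72 in the 4 groups, and P2ry12 is lowest throughout.

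LPS changed 6 of the 10 genes in each genotype, and they were the same 6 genes. In cKO macrophages 4 rose and 2 fell, with a background of 19.6% of all tested genes higher and 17.5% lower (37% in either direction). In WT macrophages 4 rose and 2 fell, with 22.5% of all tested genes higher and 19.7% lower (42.2% in either direction). The genes that rose were Adora2a, Adora2b, P2ry14 and Cd38, and those that fell were Entpd1 and P2rx7. Without regard to the test, LPS and 0 h samples did not overlap for 8 of the 10 genes in cKO (4 higher, 4 lower), beside 72.5% of all tested genes (35.6% higher, 36.9% lower). In WT they did not overlap for 6 (4 higher, 2 lower), beside 71.3% of all (35.7% higher, 35.6% lower). The median difference of the 10 genes was 0.19 in cKO and -0.02 in WT, beside -0.02 and -0.01 over all tested genes. The authors' deposited table called the same 6 genes in the same directions in both genotypes. Of its genes with a fold change, it called 15% of 21668 in cKO and 15.3% of 22289 in WT.

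**Figure D2:**
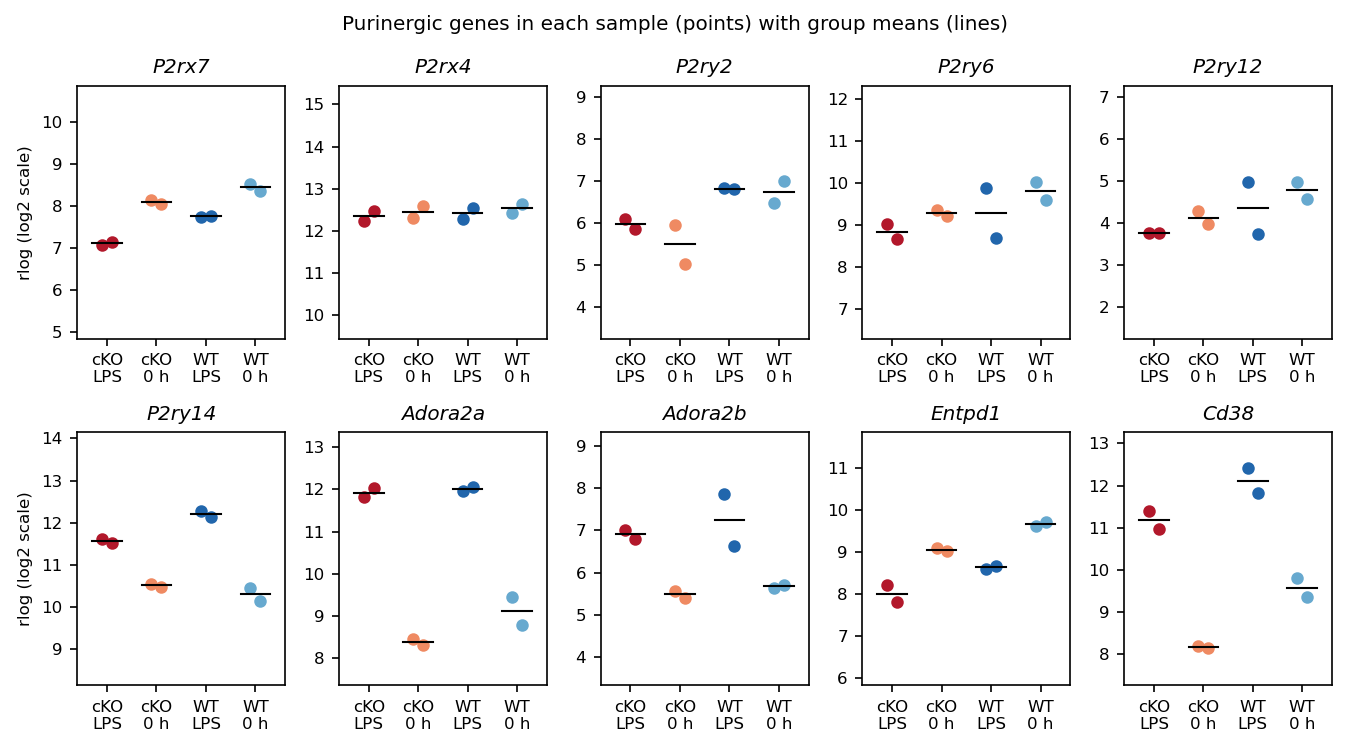
The rlog value of each of the 10 genes in each of the 8 samples (points) with the mean of each group (line); every panel spans 6 units of rlog. Adora2a, Cd38, P2ry14 and Adora2b are higher in both LPS groups than at 0 h, Entpd1 and P2rx7 are lower, and P2rx4 stays between 12.24 and 12.64.

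Both adenosine receptor genes rose. Adora2a, the receptor gene through which adenosine restrains inflammatory cytokine output, stood at 11.81 and 12.03 in cKO LPS, against 8.45 and 8.30 in cKO 0 h. In WT it stood at 11.96 and 12.06 after LPS, against 9.45 and 8.77 at 0 h. The LPS samples of the genotypes overlapped, while the cKO 0 h samples lay below the WT 0 h samples. The LPS difference was 3.55 in cKO (SE 0.21, adjusted p = 1.99e-05) and 2.90 in WT (SE 0.21, adjusted p = 2.57e-05).

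Adora2b, the receptor gene of low affinity for adenosine, stood at 7.01 and 6.81 in cKO LPS, against 5.56 and 5.40 in cKO 0 h. In WT it stood at 7.88 and 6.62 after LPS, against 5.64 and 5.70 at 0 h. The LPS and 0 h samples did not overlap in either genotype, and the WT LPS samples lay far apart. The difference was 1.42 in cKO (SE 0.35, adjusted p = 0.0126) and 1.58 in WT (SE 0.35, adjusted p = 0.0067). The WT difference was 0.95 without WT LPS replicate 1 and 2.20 without replicate 2. The cKO call was lost with no filter on low values (adjusted p = 0.0777), without cKO 0 h replicate 2 (adjusted p = 0.0561) and without cKO LPS replicate 1 (adjusted p = 0.0734).

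Of the P2Y receptor genes among the 10, only P2ry14 passed the threshold for LPS. P2ry14 encodes a receptor for UDP-glucose and other UDP-sugars. It stood at 11.61 and 11.51 in cKO LPS, against 10.55 and 10.48 in cKO 0 h, and at 12.27 and 12.13 in WT LPS, against 10.45 and 10.15 in WT 0 h. The LPS samples lay above the 0 h samples in both genotypes, and the cKO LPS samples lay below the WT LPS samples. The LPS difference was 1.05 in cKO (SE 0.14, adjusted p = 0.000635) and 1.90 in WT (SE 0.14, adjusted p = 2.64e-05). Under quantile normalization these differences were 0.66 in cKO and 1.37 in WT, and both kept their call.

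P2ry2, a receptor for ATP and UTP, stood at 6.11 and 5.87 in cKO LPS, 5.97 and 5.03 in cKO 0 h, 6.83 and 6.81 in WT LPS and 6.49 and 7.00 in WT 0 h. Its LPS and 0 h samples overlapped in WT and in cKO. The LPS difference was 0.49 in cKO (95% interval -0.20 to 1.19, adjusted p = 0.241) and 0.07 in WT (95% interval -0.62 to 0.77, adjusted p = 0.865). Without cKO 0 h replicate 1 the cKO difference was 0.96 (adjusted p = 0.0314), and without cKO 0 h replicate 2 it was 0.023 (adjusted p = 0.957). Leaving out WT 0 h replicate 1 gave a WT difference of -0.18, and leaving out replicate 2 gave 0.33.

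P2ry6, the UDP receptor that promotes phagocytosis, stood at 9.01 and 8.66 in cKO LPS, against 9.35 and 9.20 in cKO 0 h. In WT it stood at 9.87 and 8.68 after LPS, against 10.01 and 9.60 at 0 h. P2ry12, the ADP receptor of platelets and microglia, stood at 3.76 and 3.76 in cKO LPS, against 4.28 and 3.98 in cKO 0 h. In WT it stood at 4.98 and 3.75 after LPS, against 4.99 and 4.57 at 0 h. For both genes the LPS samples lay below the 0 h samples in cKO and the WT groups overlapped, with WT LPS replicate 1 more than 1 unit above replicate 2. The P2ry6 difference was -0.44 in cKO (95% interval -1.21 to 0.34, adjusted p = 0.35) and -0.53 in WT (95% interval -1.30 to 0.25, adjusted p = 0.243). The P2ry12 difference was -0.37 in cKO (95% interval -1.21 to 0.47, adjusted p = 0.465) and -0.41 in WT (95% interval -1.25 to 0.43, adjusted p = 0.4). The WT values rested on single libraries: without WT LPS replicate 1 they were -1.12 for P2ry6 (adjusted p = 0.00656) and -1.03 for P2ry12 (adjusted p = 0.0218), and without WT LPS replicate 2 they were 0.07 and 0.21.

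The 2 ATP-gated channel genes, which lie 16.1 kb apart on chromosome 5, differed in their response. P2rx7 stood at 7.08 and 7.15 in cKO LPS, against 8.15 and 8.04 in cKO 0 h. In WT it stood at 7.74 and 7.76 after LPS, against 8.51 and 8.36 at 0 h. Neither genotype's groups overlapped, and the cKO LPS samples were the lowest of the 8. P2rx7 fell by 0.98 in cKO (SE 0.13, adjusted p = 0.000659) and by 0.69 in WT (SE 0.13, adjusted p = 0.00313).

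P2rx4, a channel gene with much of its protein in lysosomes, stood at 12.24 and 12.47 in cKO LPS, 12.31 and 12.60 in cKO 0 h, 12.28 and 12.55 in WT LPS and 12.43 and 12.64 in WT 0 h. The samples of all 4 groups overlapped, and replicate 2 was the higher in each. The LPS difference was -0.10 in cKO (95% interval -0.49 to 0.28, adjusted p = 0.671) and -0.12 in WT (95% interval -0.50 to 0.27, adjusted p = 0.608). Quantile normalization, which makes the distribution of values equal in all samples, changed this to a called fall of -0.65 in cKO (adjusted p = 0.0132) and -0.78 in WT (adjusted p = 0.00546).

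**Figure D3:**
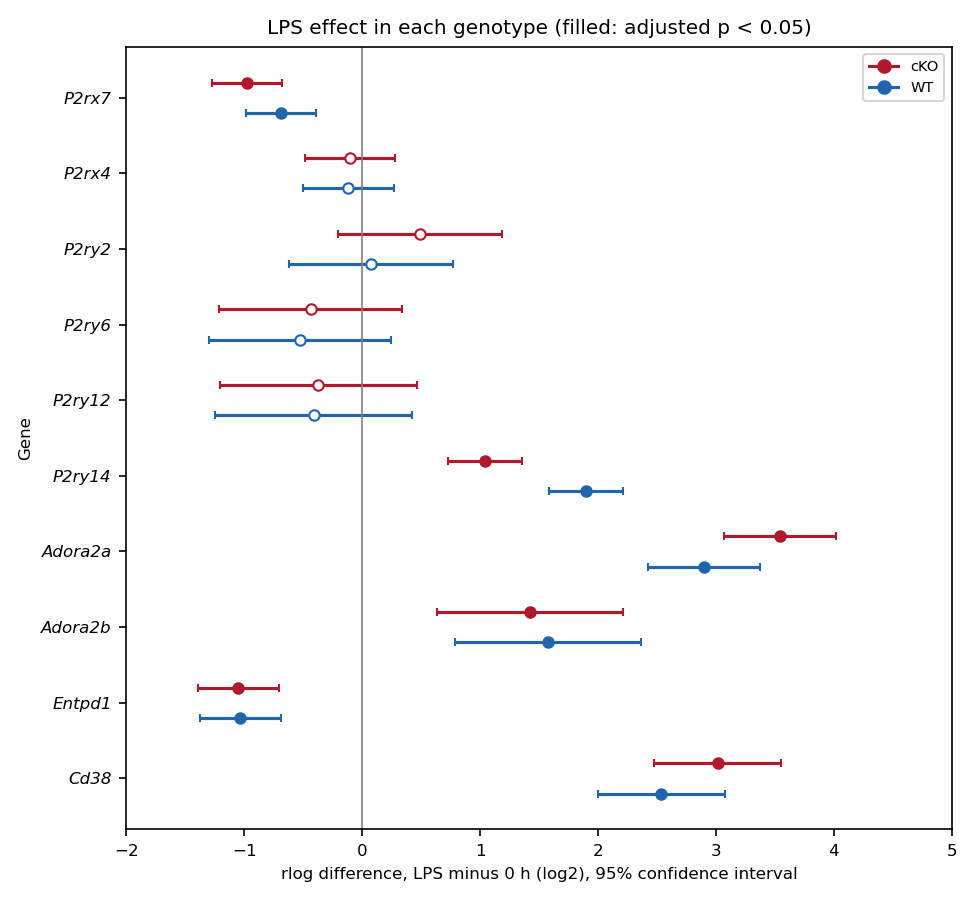
The LPS effect (LPS minus 0 h, in rlog) on each of the 10 genes in cKO and in WT, with 95% confidence intervals; filled points passed an adjusted p of 0.05. Adora2a and Cd38 show the greatest rises in both genotypes, and the intervals of P2rx4, P2ry2, P2ry6 and P2ry12 include 0.

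The 2 ectoenzyme genes moved in opposite directions. Entpd1, which encodes CD39, stood at 8.20 and 7.80 in cKO LPS, against 9.08 and 9.02 in cKO 0 h, and at 8.60 and 8.65 in WT LPS, against 9.60 and 9.71 in WT 0 h. The LPS samples lay below the 0 h samples in both genotypes, and the cKO samples lay below the WT samples at both times. Entpd1 fell by 1.05 in cKO (SE 0.15, adjusted p = 0.000987) and by 1.03 in WT (SE 0.15, adjusted p = 0.000847).

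Cd38 stood at 11.40 and 10.97 in cKO LPS, against 8.19 and 8.15 in cKO 0 h, and at 12.41 and 11.82 in WT LPS, against 9.81 and 9.34 in WT 0 h. The LPS samples lay well above the 0 h samples in both genotypes, and the cKO samples lay below the WT samples at both times. Cd38 rose by 3.02 in cKO (SE 0.24, adjusted p = 5.65e-05) and by 2.54 in WT (SE 0.24, adjusted p = 8.06e-05).

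The genotype comparison asked whether these genes differed between PtipcKO and PtipWT macrophages. Averaged over both times, 4 of the 10 genes were lower in cKO than in WT and none was higher, with 4.14% of all tested genes lower and 2.88% higher (7.02% in either direction). The 4 were Cd38, P2ry2, Entpd1 and P2rx7. All 10 estimates lay below 0, as did 6233 of all 11543 tested genes. The median of the 10 was -0.49, beside -0.02 over all tested genes. Under quantile normalization 9 of the 10 lay below 0 and P2rx4 was at 0.16. In bulk samples such as these, fewer cells of a type and less RNA per cell cannot be told apart.

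Cd38 differed on average by -1.17 between cKO and WT (SE 0.17, adjusted p = 0.00902) and P2ry2 by -1.04 (SE 0.21, adjusted p = 0.028). Entpd1 differed by -0.62 (SE 0.11, adjusted p = 0.0159) and P2rx7 by -0.49 (SE 0.09, adjusted p = 0.0205). P2ry2 was the only one of the 10 genes with all 4 cKO samples below all 4 WT samples, as were 2.64% of all tested genes. Without cKO LPS replicate 2 none of the 4 kept its call, with adjusted p from 0.0543 for Cd38 to 0.116 for P2ry2, and with no filter on low values only P2rx7 kept it. Without WT 0 h replicate 1, WT LPS replicate 1 or cKO LPS replicate 1, Cd38 and Entpd1 were the 2 genes called. P2ry2 also lost its call without WT 0 h replicate 2 and without WT LPS replicate 2, and P2rx7 without cKO 0 h replicate 2. Without WT LPS replicate 2, P2ry6 (-0.78), P2ry12 (-0.93) and Adora2b (-0.58) were called, and without WT 0 h replicate 2, Adora2a (-0.58).

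At 0 h alone, none of the 10 genes passed with limma, 5 had an unadjusted p under 0.05 (10.9% of all tested genes did), and 0.251% of all tested genes were called (0.052% higher, 0.199% lower). All values but that of P2ry14 (0.21) lay below 0, from -1.41 for Cd38 (SE 0.24, adjusted p = 0.0716) and -1.25 for P2ry2 (SE 0.30, adjusted p = 0.206) to -0.08 for P2rx4. Of all 11543 tested genes, 6020 lay below 0. The groups did not overlap for 8 genes that were lower in cKO and for P2ry14, where cKO was higher, while 41.2% of all tested genes did not overlap (21.9% lower, 19.3% higher). Adora2a differed by -0.73 (SE 0.21, adjusted p = 0.261) and Entpd1 by -0.61 (SE 0.15, adjusted p = 0.212). The authors' deposited table called 1 of the 10 genes, Cd38, with a log2 fold change of -1.58 (adjusted p = 3.31e-06), and 0.806% of its 21848 genes with a fold change. Without cKO 0 h replicate 1, P2ry2 was called, at -1.71 (adjusted p = 0.0322), and without cKO 0 h replicate 2 it was at -0.78 (adjusted p = 0.606).

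After LPS, P2rx7 and P2ry14 were lower in cKO, with 2.46% of all tested genes lower and 1.51% higher (3.97% in either direction). P2rx7 differed by -0.63 (SE 0.13, adjusted p = 0.0366) and P2ry14 by -0.64 (SE 0.14, adjusted p = 0.043). Entpd1 (-0.63, SE 0.15, adjusted p = 0.0588) and Cd38 (-0.93, SE 0.24, adjusted p = 0.0674) did not pass, and without WT LPS replicate 2 Cd38 was called, at -1.22 (adjusted p = 0.0456), while without WT LPS replicate 1 it was at -0.63 (adjusted p = 0.236). Adora2a differed by -0.09 (95% interval -0.56 to 0.38, adjusted p = 0.84), and by 0.15 under quantile normalization. The groups did not overlap for 5 genes, all lower in cKO (P2rx7, P2ry2, P2ry14, Entpd1 and Cd38), while 53% of all tested genes did not overlap (29.7% lower, 23.3% higher). The authors' deposited table called 2 of the 10 genes, Cd38 with a log2 fold change of -0.97 (adjusted p = 0.00657) and P2ry14 with -0.64 (adjusted p = 0.0335), and 2.97% of its 21720 genes with a fold change. Both calls made here were lost with no filter on low values, under quantile normalization and without a variance trend. Leaving out either WT LPS sample or either cKO LPS sample also ended both calls, without WT 0 h replicate 1 that of P2rx7 was lost (adjusted p = 0.0506), and without cKO 0 h replicate 1 that of P2ry14 (adjusted p = 0.05). Under quantile normalization P2ry14 differed by -0.40.

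**Figure D4:**
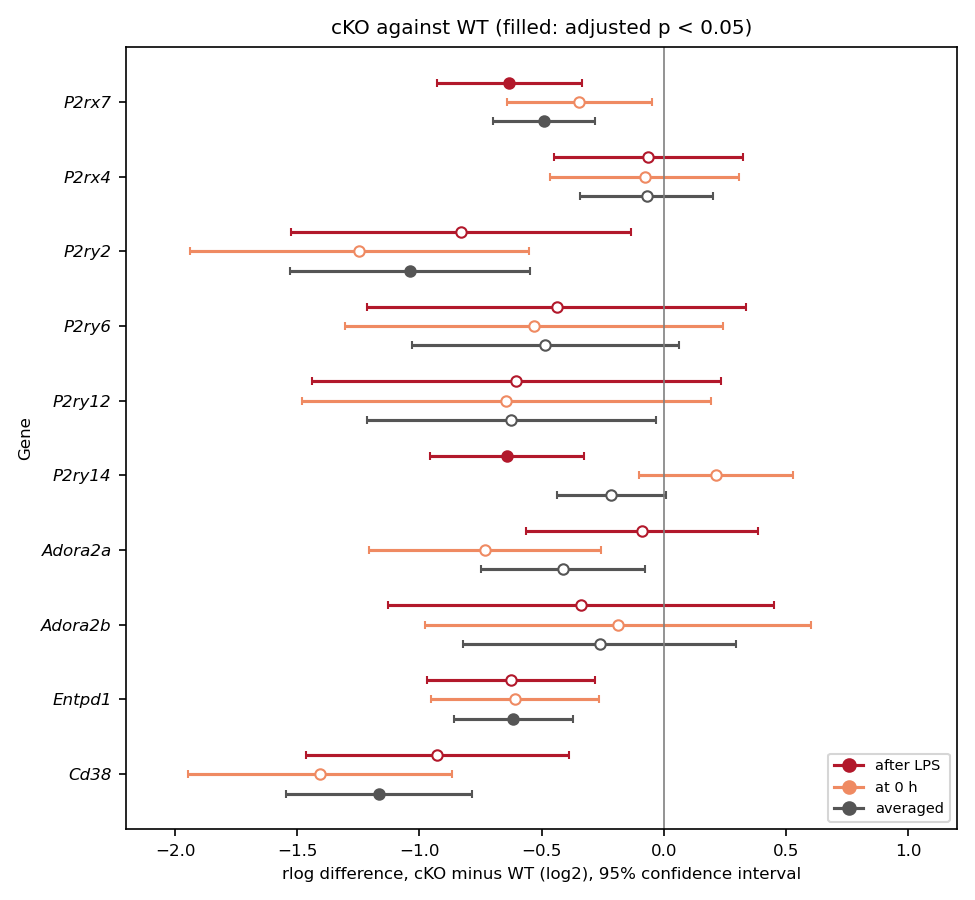
The cKO minus WT difference in rlog for each of the 10 genes after LPS, at 0 h and averaged over both times, with 95% confidence intervals; filled points passed an adjusted p of 0.05. Most points lie below 0, P2rx4 lies close to 0, and P2ry14 lies above 0 at 0 h and below 0 after LPS.

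Whether the LPS effect itself differed between genotypes was tested by the interaction. None of the 10 genes passed with limma, 1 had an unadjusted p under 0.05, and 0% of all tested genes passed, with 751 of 11543 (6.51%) at an unadjusted p under 0.05. The 1 gene was P2ry14, whose rise was smaller in cKO by 0.85 on the log2 scale (interaction -0.85, 95% interval -1.30 to -0.41, unadjusted p = 0.00205, adjusted p = 0.643). Its interaction lay between -1.01 and -0.70 under all 15 alternatives run, with adjusted p from 0.347 to 0.995. For Adora2a the interaction was 0.64 (95% interval -0.03 to 1.31, adjusted p = 0.764). It was 0.48 for Cd38 (95% interval -0.28 to 1.24) and -0.29 for P2rx7 (95% interval -0.71 to 0.13), and -0.02 for Entpd1 (95% interval -0.51 to 0.47).

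Several of these genes sit beside relatives in the genome. P2ry14 (chromosome 3, 59113855 to 59153618) and P2ry12 (chromosome 3, 59216272 to 59262871), both on the minus strand of GRCm38, flank P2ry13, another ADP receptor gene, and all 3 lie within Med12l, a gene of the plus strand. Med12l had rlog values from 1.81 to 2.95 and shared 0 exon bases with P2ry14 and 9 with P2ry12, and the strand setting of the counting was not stated, so reads of overlapping strands cannot be told apart. P2ry13 rose with LPS by 1.81 in cKO (adjusted p = 0.004) and by 1.72 in WT (adjusted p = 0.00423), as did P2ry14, while P2ry12, 5.39 kb from P2ry13, was not called. After LPS P2ry13 differed by 0.40 between cKO and WT (adjusted p = 0.549). Bst1, a paralog of Cd38 that also consumes NAD and ends 24.6 kb before it on chromosome 5, differed by 0.46 in cKO (adjusted p = 0.0867) and by 0.51 in WT (adjusted p = 0.057) after LPS. P2ry6 (chromosome 7, 100937630 to 100974649) and P2ry2 (chromosome 7, 100996568 to 101012866) lie 21.9 kb apart, and both were uncalled for LPS.

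Promoter sequences are shown for genes that rose or fell with LPS and for 1 that was not called. RefSeq windows of 300 bases on GRCm38.p6, 250 before and 50 after a transcription start, were matched for 8 of the 10 genes (14 windows, some overlapping), and not for P2ry6 or Adora2a. The bases before the start, up to the first base annotated as UTR, are shown for P2ry14 (chr3:59153493-59153742, minus strand) and Adora2b (chr11:62248734-62248983, plus strand), which rose, P2rx7 (chr5:122643677-122643910, plus strand) and Entpd1 (second start, chr19:40659520-40659769, plus strand), which fell, and P2rx4 (chr5:122707294-122707543, plus strand), which was not called. These starts differ from the gene positions given above for P2ry14, which run to 59153618. Part of its printed window, with the PU.1 match, therefore lies inside that gene span. The Entpd1 window lies wholly inside its gene span (chromosome 19, 40612366 to 40741602). Sequences run from 5′ to 3′ on the gene's strand, and capitals mark matches, on either strand, to the motifs searched.
P2ry14: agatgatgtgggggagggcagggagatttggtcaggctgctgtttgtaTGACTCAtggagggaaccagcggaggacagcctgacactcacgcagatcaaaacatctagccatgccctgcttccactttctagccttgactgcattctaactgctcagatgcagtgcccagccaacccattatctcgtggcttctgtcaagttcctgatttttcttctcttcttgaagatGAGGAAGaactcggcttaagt
Adora2b: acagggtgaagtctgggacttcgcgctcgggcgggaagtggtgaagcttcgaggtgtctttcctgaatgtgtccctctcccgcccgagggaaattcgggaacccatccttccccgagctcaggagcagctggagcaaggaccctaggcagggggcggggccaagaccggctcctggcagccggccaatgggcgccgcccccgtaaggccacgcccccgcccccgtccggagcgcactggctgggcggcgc
P2rx7: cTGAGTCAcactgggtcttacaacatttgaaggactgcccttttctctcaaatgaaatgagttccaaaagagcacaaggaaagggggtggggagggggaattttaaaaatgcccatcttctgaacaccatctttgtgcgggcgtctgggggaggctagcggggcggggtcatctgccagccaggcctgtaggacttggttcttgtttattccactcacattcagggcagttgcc
Entpd1: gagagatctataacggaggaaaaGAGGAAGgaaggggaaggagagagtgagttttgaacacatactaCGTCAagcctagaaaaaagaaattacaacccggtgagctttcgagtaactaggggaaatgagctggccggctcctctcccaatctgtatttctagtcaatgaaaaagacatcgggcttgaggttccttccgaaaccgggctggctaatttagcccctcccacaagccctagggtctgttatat
P2rx4: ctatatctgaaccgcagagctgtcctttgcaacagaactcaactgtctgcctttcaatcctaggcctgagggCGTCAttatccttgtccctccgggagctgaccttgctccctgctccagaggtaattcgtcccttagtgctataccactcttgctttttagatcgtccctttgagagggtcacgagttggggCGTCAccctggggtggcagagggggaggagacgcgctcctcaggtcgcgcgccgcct

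The motifs were the NF-kB and ISRE consensus patterns, GAS (TTCNNNGAA), AP-1 (TGANTCA), a CRE core (TGACG), a hypoxia element (ACGTG) and PU.1 (GAGGAAG). The CRE core and the hypoxia element can share bases. In the P2ry14 window an AP-1 match lay at positions -202 to -196 from the start and a PU.1 match at -21 to -15, and in the P2rx7 window an AP-1 match lay at -249 to -243. The Entpd1 window held a PU.1 match at -227 to -221 and a CRE match at -183 to -179, and the P2rx4 window held CRE matches at -178 to -174 and -57 to -53. No motif of the 7 was matched in the Adora2b window, nor in that of Cd38. Over the 14 windows AP-1 was matched in 3, which belong to 2 genes, and in 7.81% of all 32851 windows of the table. PU.1 was matched in 3, of 3 genes, against 13.6% of all. NF-kB was matched in 1, that of P2ry12, against 5.56% of all; ISRE (3.44% of all) and GAS (8.3% of all) were matched in none. A CRE core was matched in 3 windows of 2 genes (20.8% of all windows) and a hypoxia element in 3 windows of 2 genes (19.6% of all windows). A match is a description of letters, and a window without one says only that these letters are not in it.

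The other genes of the pathway were taken from 8 lists of 81 genes, of which 60 were tested. LPS raised 19 and lowered 12 of them in cKO, and raised 20 and lowered 17 in WT. The shares of all tested genes, against which the counts of each list below stand, are 19.6% higher and 17.5% lower in cKO, and 22.5% higher and 19.7% lower in WT. The median difference over the 60 genes was -0.05 in cKO and -0.17 in WT, beside -0.02 and -0.01 over all tested genes.

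Of the 10 other ATP and nucleotide receptor genes 4 were tested. P2ry13 rose in both genotypes, and P2ry10b rose (0.46, adjusted p = 0.0284) and the ADP receptor gene P2ry1 fell (-0.73, adjusted p = 0.0424) in WT. P2rx1, P2rx2, P2rx3, P2rx6 and P2ry10 had a mean below the filter, and P2ry4 was listed at 0 in every sample. Of the other adenosine receptor genes, Adora1 was listed at 0 in every sample and Adora3 lay between 1.46 and 2.37, so Adora2a and Adora2b were the adenosine receptor genes tested.

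Of 16 other nucleotide ectoenzyme genes 8 were tested, of which 1 rose and 2 fell in cKO, and 2 rose and 3 fell in WT. Enpp4, a surface nucleotide phosphodiesterase gene, rose by 3.49 in cKO (adjusted p = 8.22e-05) and by 4.02 in WT (adjusted p = 2.99e-05). Entpd5 and Entpd7, relatives of Entpd1 that act inside the cell, fell: Entpd5 by 0.82 in cKO and by 0.71 in WT, and Entpd7 by 0.78 in cKO and by 1.17 in WT. In WT Enpp5 also rose (1.07, adjusted p = 0.0183) and Enpp1 also fell (-0.81, adjusted p = 0.0103). Nt5e, whose product makes adenosine from the AMP that CD39 yields, lay between 0.83 and 1.57 in the 8 samples and was below the filter.

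Among 9 tested genes of adenosine and nucleoside handling, 2 rose and 3 fell in each genotype. The concentrative nucleoside transporter gene Slc28a2 rose by 3.32 in cKO and by 4.16 in WT, and Pnp, the purine nucleoside phosphorylase gene, rose by 2.20 in cKO and by 2.51 in WT. The equilibrative transporter genes Slc29a1 (-1.32 in cKO and -1.45 in WT) and Slc29a2 (-1.04 in cKO and -1.48 in WT) fell, as did Adk, the adenosine kinase gene (-1.15 in cKO and -0.78 in WT). The adenosine deaminase gene Ada was not called (-0.21 in cKO and -0.43 in WT). In cKO against WT, Slc29a3 was lower after LPS (-0.74, adjusted p = 0.0426) and averaged over both times (-0.67, adjusted p = 0.0135), and Slc28a2 was lower averaged over both times (-0.97, adjusted p = 0.0388). The Slc29a3 call after LPS was lost when either cKO LPS library was left out.

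Of 6 tested genes of nucleotide release 2 rose and 1 fell in cKO, and 3 rose and 2 fell in WT. Lrrc8c, a volume-regulated anion channel subunit gene, rose by 2.08 in cKO and by 2.001 in WT. It was lower in cKO than in WT at 0 h (-0.81, adjusted p = 0.039), after LPS (-0.73, adjusted p = 0.0197) and averaged over both times (-0.77, adjusted p = 0.00449). Its call at 0 h was lost when only the groups compared were fitted. Its call after LPS was lost when either cKO LPS library was left out. Gja1, a connexin gene, rose by 1.40 in cKO and by 1.70 in WT, and Slc17a9, the vesicular nucleotide transporter gene, fell by 1.30 in cKO and by 1.63 in WT. In WT Lrrc8a also fell (-1.30, adjusted p = 0.0426). The ATP release channel gene Panx1 was not called in any comparison, at -0.69 in cKO and -0.27 in WT for LPS.

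Of 10 tested genes of the inflammasome that the P2X7 channel can trigger, 6 rose and 0 fell in cKO, and 6 rose and 1 fell in WT, beside 19.6% of all tested genes higher in cKO and 22.5% in WT. Their median difference was 1.29 in cKO and 1.60 in WT, while P2rx7 itself fell. Il1b rose by 2.98 in cKO and by 3.14 in WT, and Il18 by 2.90 in cKO and by 3.30 in WT. The fall in WT was in Kcnk6, a potassium channel gene (-0.77, adjusted p = 0.0155). Il1b was lower in cKO than in WT after LPS (-1.39, adjusted p = 0.0294) and averaged over both times (-1.31, adjusted p = 0.00809), as was the inflammasome adaptor gene Pycard averaged over both times (-0.43, adjusted p = 0.05, under the threshold before rounding). The Il1b call after LPS was lost when either cKO LPS library was left out.

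Of 8 tested genes of NAD supply and of the targets of NAD products, around the enzyme that Cd38 encodes, 4 rose and 2 fell in cKO, and 3 rose and 3 fell in WT. The NAD-consuming ADP-ribosyltransferase genes Parp10 (2.50 in cKO and 2.17 in WT) and Parp14 (2.33 in cKO and 2.56 in WT) rose most. Nampt, the rate-limiting gene of NAD salvage, differed by 1.48 in cKO (adjusted p = 0.000276) and by 1.68 in WT (adjusted p = 0.00011). Naprt, which makes NAD from nicotinic acid, fell (-1.39 in cKO and -1.499 in WT), and Nmnat3 fell by 0.70 in cKO and by 1.21 in WT. With limma 0 of the 8 were called in cKO against WT; at an unadjusted p under 0.05 there were 0 at 0 h, 2 after LPS (21.5% of all tested genes) and 2 averaged over both times (23.5% of all).

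Of 15 tested genes of G protein and cyclic AMP signalling beside the receptors, 3 rose and 4 fell in cKO, and 2 rose and 4 fell in WT. Gna13 rose by 1.04 in cKO and by 1.13 in WT, and Plcb3 by 0.93 in cKO and by 0.98 in WT. Pde4b, a phosphodiesterase gene that breaks down cyclic AMP, rose in cKO (1.09, adjusted p = 0.0128) and was at 0.74 in WT (adjusted p = 0.0516). Arrb1, an arrestin gene, fell by 2.63 in cKO and by 2.69 in WT, and the phospholipase gene Plcb2 fell by 1.21 in cKO and by 1.28 in WT. Crem, a cyclic AMP-responsive factor gene, was lower in cKO averaged over both times (-0.90, adjusted p = 0.0386).

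**Figure D5:**
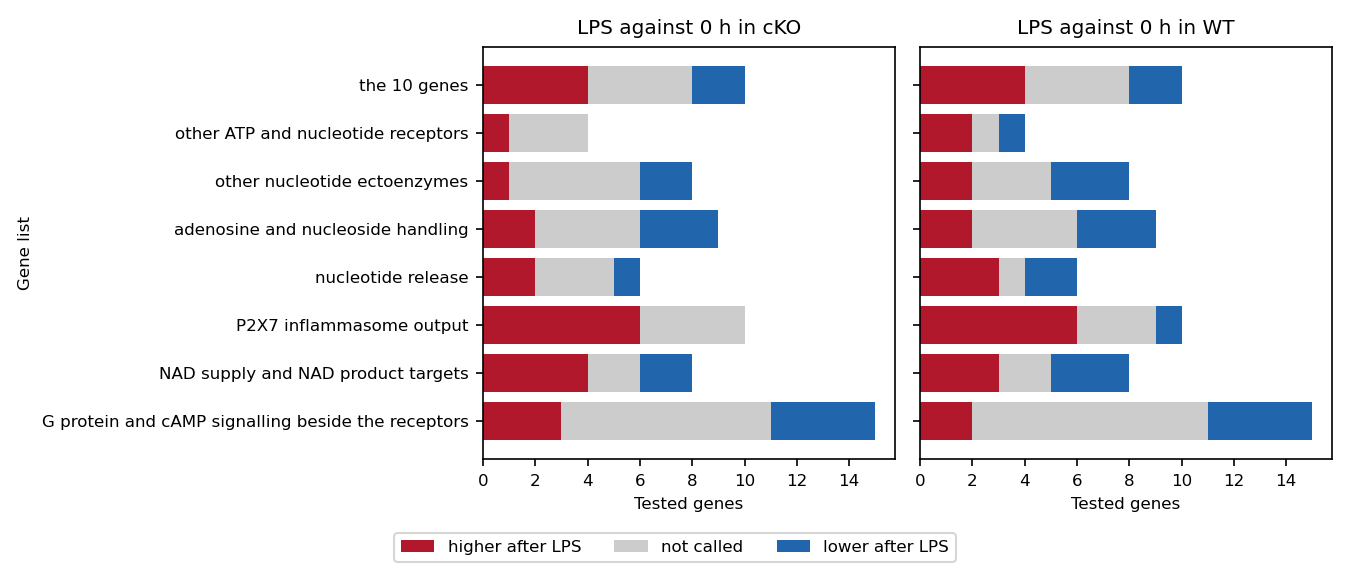
Number of tested genes higher, not called and lower after LPS (adjusted p under 0.05) for the 10 genes and each pathway list with tested genes, in cKO and in WT. The P2X7 inflammasome list has 6 rises in each genotype, with 0 falls in cKO and 1 in WT. The list of other ATP and nucleotide receptors has 1 rise and 0 falls in cKO. The remaining lists hold rises and falls in both genotypes.

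Each of the 10 genes was also set against the other tested genes by the Pearson correlation of rlog over the 8 samples. Genes with Rik, Gm or clone names, or names that begin with a digit, were left out, and the 2 most alike of the rest were named. These are descriptions, since the 8 samples share 4 groups and the LPS contrast. They were Rrp7a (r = 0.998) and Zdhhc18 (r = 0.996) for Adora2a, Pafah1b2 and Tbk1 (r = 0.995 each) for Cd38, Asap3 and Ociad1 (r = 0.996 each) for P2ry14, and Rnpep (r = 0.994) and Zfp324 (r = 0.990) for Adora2b. For the genes that fell they were Rgs10 (r = 0.990) and Ubl3 (r = 0.987) for Entpd1, and Smc1a (r = 0.989) and Sdhd (r = 0.983) for P2rx7. For the uncalled genes they were Plod1 (r = 0.989) and Ptger4 (r = 0.976) for P2ry12, Ubac2 (r = 0.984) and Sh3bp1 (r = 0.981) for P2ry6, Zfp869 (r = 0.986) and Esyt1 (r = 0.958) for P2rx4, and Pcid2 (r = 0.952) and Mfge8 (r = 0.950) for P2ry2.

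Markers of other cells were measured beside these results. The log2 summed level of 6 dendritic cell markers, led by Ccr7, was 10.11 to 10.19 in cKO LPS against 8.63 to 8.88 in cKO 0 h. In WT it was 10.19 to 11.17 after LPS against 8.69 to 9.24 at 0 h. Of the 6, 3 were tested, Ccr7, Zbtb46 and Xcr1, which rose in both genotypes. Flt3, Cd209a and Siglech were below the filter, and Siglech stayed at or below -2.14. For 10 macrophage markers, led by Lyz2, the log2 summed level was 18.57 to 18.62 in cKO LPS and 18.42 to 18.74 in cKO 0 h. In WT it was 19.48 to 19.53 after LPS and 19.24 to 19.32 at 0 h. Of these, Itgam (-1.11) and Mertk (-1.10) were lower in cKO after LPS, and averaged over both times Itgam, Mertk, Cd14 (-0.80) and Lyz2 (-0.92) were lower and Spi1 (2.38) was higher. For 6 T and NK cell markers the log2 summed level was 7.47 to 8.05 in cKO LPS against 4.79 to 5.02 in cKO 0 h, and 7.82 to 8.08 in WT LPS against 4.77 to 5.11 in WT 0 h. Of the 6, 1 was tested, Lck, which rose in both genotypes, and Cd3e stayed at or below -2.12. For 6 fibroblast and stromal markers it was 6.12 to 6.21 in cKO LPS against 3.78 to 4.18 in cKO 0 h, and 6.38 to 6.41 in WT LPS against 4.02 to 4.30 in WT 0 h; 1, Pdgfrb, was tested and rose in both, and Col3a1 stayed at or below -2.13. For 6 B cell markers it was 3.64 to 4.55 in cKO LPS against 5.06 to 5.25 in cKO 0 h, and 3.71 to 4.06 in WT LPS against 4.72 to 5.24 in WT 0 h; 1, Cd79b, was tested and fell in both. For 5 megakaryocyte and platelet markers, which bear on P2ry12, the log2 summed level was led by Pf4. The sum was 7.42 to 8.04 in cKO LPS and 7.54 to 8.10 in cKO 0 h. In WT the sum was 8.33 to 9.07 after LPS and 8.39 to 9.35 at 0 h. Of these markers 3 were tested and 0 called with limma, and Gp1bb was listed at 0. At 0 h Pf4 averaged 7.55 in cKO and 8.76 in WT, while Itga2b averaged 3.51 and 2.80 and Ppbp 4.45 and 4.09. Of 10 neutrophil markers 3 were tested, and the sum of the 10 was 12.55 to 13.07 in cKO LPS, 13.51 to 13.79 in cKO 0 h, 12.14 to 12.84 in WT LPS and 12.60 to 13.27 in WT 0 h, with Retnlg listed at 0. Of these 3, Camp rose with LPS in cKO (1.84) and in WT (1.19), S100a8 rose with LPS in WT (0.65) and was higher in cKO averaged over both times (0.96, adjusted p = 0.0102), and Mmp8 was not called. The part of these cell types in the results was not tested.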

How the data were processed

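Poly(A) RNA of 8 BMDM samples was sequenced after Trizol extraction, oligo-dT selection and 15 PCR cycles, per the labels' protocols. Per the submitters' processing notes, CASAVA, HISAT2 2.1.0, featureCounts and DESeq2 were used with the genome GRCm38; their roles, the annotation and the strand setting were not stated. The authors deposited log2 expression values (rlog) for 55226 genes, 26727 of them listed at 0 in every sample. For 4 comparisons the authors also deposited log2 fold changes and adjusted p-values. No counts were used, so depth is unknown and no counting interval is given.

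The 11543 genes whose mean rlog reached 3 were fitted with limma 3.58.1 in R 4.3.3 on 4 group means over all 8 samples (lmFit, contrasts.fit, eBayes with a variance trend; 4 residual and 4.4 prior degrees of freedom). P-values were adjusted by the Benjamini-Hochberg method across all tested genes (threshold 0.05), and intervals cover 95%. Gene positions and exon lengths came from GENCODE M21 of GRCm38, and promoter windows from RefSeq on GRCm38.p6. The 10 genes and the lists were chosen with earlier results of these data known. All 10 genes were named; of the lists, up to 2 leading rises and 2 leading falls per comparison and any gene called between genotypes were named, and genes singled out beyond this rule were chosen after their values were seen. Alternatives were other filters, 2 scalings, other variance models, a replicate term, fits of only the groups compared and leaving out each library; the authors' deposited calls were added after seeing the data.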

Additional observations from a re-analysis of the deposited data

How the results depend on the processing

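All 12 LPS calls on the 10 genes kept their direction under the 16 alternatives run for each, and 11 kept their call in every one; Adora2b in cKO lost it in 3. For LPS the direction could change only under the 2 scalings or the loss of a library of the groups compared. The other settings leave the difference itself unchanged and bear only on the call. The number of genes called between genotypes varied with the setting, and the cause was not tested. At 0 h, 1 of the 10 genes was called with a replicate block (Cd38, adjusted p = 0.0113) and 1 by the authors' deposited adjusted p-values, against 0, and 0 to 1 with 1 library left out. After LPS, 0 were called with no filter on low values, 0 under quantile normalization, 0 without a variance trend, 1 when only the groups compared were fitted and 4 with the replicate block (adding Cd38 at adjusted p = 0.0138 and Entpd1 at 0.0488), against 2, and 0 to 2 with 1 library left out. Averaged over both times, 1 was called with no filter, against 4, and 0 to 6 with 1 library left out.

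Over all tested genes, 29 were called at 0 h, against 114 with no filter, 9 without a variance trend, 72 with the block, 0 when only the groups compared were fitted and 2 to 128 with 1 library left out. After LPS, 458 were called (174 higher, 284 lower), against 208 with no filter, 235 under quantile normalization (115 higher, 120 lower), 301 without a variance trend, 804 with the block and 0 to 582 with 1 library left out. Averaged over both times, 810 were called, against 359 with no filter and 109 to 775 with 1 library left out. The interaction had 0, against 10 with no filter, and the LPS effect in cKO 4275, against 2684 to 4468 with 1 library left out.

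The labels do not say that replicate numbers pair samples, so the block was not the main analysis. The differences between replicates correlated across genes at 0.311 between the cKO groups and 0.222 between the WT groups. Between genotypes they correlated at -0.042 at 0 h and 0.2 after LPS.

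Signs changed in values that were not called. Under quantile normalization P2rx4 in cKO against WT was at 0.095 at 0 h, 0.22 after LPS and 0.16 averaged, Adora2a after LPS at 0.15 and the Entpd1 interaction at 0.022. With 1 library left out, the LPS effect in cKO ranged from -0.25 to 0.042 for P2rx4. In WT it ranged from -0.25 to 0.014 for P2rx4, -0.18 to 0.33 for P2ry2, -1.12 to 0.070 for P2ry6 and -1.03 to 0.21 for P2ry12. The difference between cKO and WT for P2rx4 ranged from -0.22 to 0.066 at 0 h, -0.20 to 0.069 after LPS and -0.14 to 0.0013 averaged. After LPS it ranged from -1.04 to 0.16 for P2ry6, -1.22 to 0.013 for P2ry12, -0.20 to 0.019 for Adora2a and -0.97 to 0.29 for Adora2b, which averaged ranged from -0.58 to 0.051. The interaction ranged from -0.13 to 0.16 for P2rx4, -0.051 to 0.88 for P2ry2, -0.51 to 0.69 for P2ry6, -0.58 to 0.66 for P2ry12, -0.78 to 0.48 for Adora2b and -0.22 to 0.18 for Entpd1. With 2 samples a group and no counts, depth and small differences could not be resolved further.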
